A study of Mus musculus with 12 samples.

Results

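Granzymes, perforin and killer cell receptors are the working parts of cytotoxic lymphocytes, and 10 such genes were followed here: the granule proteases Gzma, Gzmb and Gzmk, the granule genes Prf1 and Nkg7, the receptor genes Klrd1, Klrk1 and Ncr1, the cytokine gene Ifng and the transcription factor gene Eomes. They were chosen by name, and all 10 had at least 1 array probe set with a single gene symbol, among 18193 genes with such a probe set. A gene with several probe sets was represented by the brightest. Only 5 of the 10, Gzma, Gzmb, Prf1, Nkg7 and Klrd1, lay above the filter on dim genes and were tested together with 12735 genes in all. The other 5, Gzmk, Klrk1, Ncr1, Ifng and Eomes, fell in the lowest 30% of gene means, below a log2 intensity of 5.37, and are dim.

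RNA came from 12 whole tumors of LLC cells (Lewis lung carcinoma, a mouse line) grown under the skin of female C57BL/6 mice aged 6 to 8 weeks and collected on day 19, with each tumor on 1 Affymetrix array. The 1D11_radiation tumors received the TGF-beta-neutralizing antibody 1D11 and radiation, radiation tumors received the isotype control antibody 13C4 and radiation, 1D11 tumors received 1D11 alone, and control tumors received 13C4 alone, with 3 tumors in each group. The labels give the radiation both as 5 fractions of 6 Gy and as 2 Gy. All mice kept their own immune system, and nothing in the labels states that tumors came from separate mice, so p-values measure the spread between these 12 samples, some of which may be technical.

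Cytotoxic T cells and natural killer cells store perforin and granzymes in secretory granules. When receptors on the killer cell recognise a target, perforin opens a path through the target's membrane and granzymes enter and cleave proteins that lead to its death. Natural killer receptors of the lectin-like family set the threshold for this release, interferon gamma is secreted alongside, and Eomes is a T-box factor that directs the differentiation of these cells. TGF-beta is known to dampen the expression of several of these genes in T cells. In whole-tumor RNA, more cells of a type and more RNA per cell cannot be told apart.

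The cell types behind these genes were checked first with their own markers. Of 6 natural killer cell markers, 4 had a probe set (Ncr1, Klre1, Eomes and Klra8), and all 4 were dim. Of 8 T cell markers, Cd3g, Cd247, Cd8b1 and Cd5 were dim, and Cd3d, Cd3e, Cd8a and Cd4 were tested. The label of killer cell genes therefore rests on granzyme, Nkg7, Prf1 and Klrd1 signal, while the receptor and factor genes most particular to natural killer cells were at the dim end of the array. The skeletal muscle markers varied widely, and the source of their signal was not tested: their summed intensity was highest in radiation replicate 3, at 27992, and in control replicate 1, at 17796, against 2238 to 11659 in the other tumors. For Gzma, Gzmb, Prf1, Nkg7 and Klrd1, each result below that changed its call without both of these arrays is given with that value. Calls of genes on the other lists were not checked one by one without these arrays.

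Gzmb, Gzma and Klrd1 were higher in radiation than in control tumors. Gzmb was at a 2.66-fold, Gzma at a 2.17-fold and Klrd1 at a 3.16-fold level, while Nkg7 (1.48-fold) and Prf1 (1.11-fold) did not pass the test. Of the 5 genes tested, 3 were called higher at an adjusted p under 0.05 in limma, against 1.48% of all genes tested. In 4 of the 5, every radiation tumor lay above every control tumor, against 10.6% of all genes tested. With quantile normalization 51.6% of all called genes were higher in this comparison, against 61.8% as deposited.

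Gzmb encodes granzyme B, the granule protease that cuts after aspartate and starts the caspase cascade. Its log2 intensity was 7.89, 7.74 and 7.70 in the radiation tumors, against 6.17, 6.57 and 6.35 in the control tumors. It was 7.26, 8.20 and 7.28 in the 1D11_radiation tumors, against 6.75, 7.04 and 6.59 in the 1D11 tumors. All 6 irradiated tumors thus lay above all 6 unirradiated ones, with 1D11_radiation replicate 2 the highest of the 12 and control replicate 1 the lowest. Radiation under the control antibody raised Gzmb by a log2 change of 1.41, with an SE of 0.22 over 3 tumors in each group (limma, adjusted p = 0.0139); later changes are also given ± SE. Leaving out radiation replicate 1 or 2 ended that call, at adjusted p = 0.0677 and 0.0549.

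Gzma encodes granzyme A, a granule protease with tryptic specificity. It was at 6.78, 6.81 and 6.89 log2 intensity in the radiation tumors, against 5.53, 6.08 and 5.52 in the control tumors. In 1D11_radiation tumors it was at 6.59, 7.56 and 6.37, against 6.17, 6.46 and 6.17 in 1D11 tumors. The radiation tumors lay close together and above the control tumors without overlap, whereas under 1D11 the irradiated replicate 3 lay below the unirradiated replicate 2. The change between radiation and control was 1.12 ± 0.26 at an adjusted p of 0.0497 (limma), close to the threshold. Of 20 alternative settings, 5 kept this call. It was lost without any single control, 1D11 or radiation tumor or without 1D11_radiation replicate 1, and without both muscle-rich arrays (0.99, adjusted p = 0.126).

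The windows upstream of both granzyme genes are shown because Gzma and Gzmb changed together although they lie on different chromosomes. Each line gives the 250 bases before the gene's start in RefSeq (GRCm38.p6), on the gene's strand, with capitals for motif matches. Gzma lies on chromosome 13 and Gzmb on chromosome 14, both on the minus strand.
Gzma, chr13:113100982-113101231, minus strand: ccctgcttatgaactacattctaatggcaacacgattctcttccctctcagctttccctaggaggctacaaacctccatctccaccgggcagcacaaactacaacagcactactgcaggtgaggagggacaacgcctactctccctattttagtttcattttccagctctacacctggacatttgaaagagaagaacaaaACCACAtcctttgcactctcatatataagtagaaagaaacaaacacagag
Gzmb, chr14:56262335-56262584, minus strand: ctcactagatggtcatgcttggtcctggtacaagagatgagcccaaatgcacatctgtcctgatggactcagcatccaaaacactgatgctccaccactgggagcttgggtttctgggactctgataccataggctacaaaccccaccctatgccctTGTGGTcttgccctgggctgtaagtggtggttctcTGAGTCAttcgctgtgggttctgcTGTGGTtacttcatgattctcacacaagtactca
The capitals mark matches, on either strand, to TGTGGT (the core of RUNX sites; ACCACA on the other strand) and to TGANTCA (the AP-1 site). Gzma had 1 RUNX match, 50 to 45 bases before the start. Gzmb had 2 RUNX matches, 93 to 88 and 34 to 29 bases before the start, and between them the AP-1 match TGAGTCA, 58 to 52 bases before it. Of 32851 RefSeq promoter windows of the same length, 14.0% held a RUNX match and 6.75% an AP-1 match. A window was available for 9 of the 10 genes, all but Klrd1. A RUNX match lay in 6 of the 9 (Gzma, Gzmb, Prf1, Nkg7, Klrk1 and Ncr1), the T-box core GGTGTG in Gzmk and Nkg7, and the GAS motif TTCNNNGAA in Nkg7 and Ifng. The T-box core lay in 16.3% and the GAS motif in 7.02% of all windows. None of the 9 windows held the CRE motif TGACGTCA, which 1.55% of all windows held. Matches describe the letters in these windows and do not show binding.

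Prf1 encodes perforin, the pore-forming protein of the granule. In radiation tumors Prf1 was at 6.12, 6.10 and 6.32 log2 intensity, against 6.37, 6.01 and 5.70 in control tumors. In 1D11_radiation tumors it was at 6.53, 6.90 and 6.05, against 5.90, 6.14 and 5.98 in 1D11 tumors. The groups overlapped in both pairs, and 1D11_radiation replicates 1 and 2 were the highest tumors. The difference between radiation and control was 0.15 ± 0.20 (95% interval -0.29 to 0.59, adjusted p = 0.738, limma), and between 1D11_radiation and 1D11 it was 0.49 ± 0.20 (0.05 to 0.93, adjusted p = 0.271). A second, dimmer Prf1 probe set went the other way under 1D11, with a log2 change of -0.09 ± 0.10 between 1D11_radiation and 1D11 tumors, and at -0.04 ± 0.10 between radiation and control. The 2 probe sets of Prf1 therefore disagree in sign, and no direction is given for this gene.

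Nkg7 encodes a granule membrane protein of natural killer and T cells. Its log2 intensity was 5.87, 6.01 and 6.11 in radiation tumors, against 5.50, 5.33 and 5.46 in control tumors. In 1D11_radiation tumors Nkg7 was at 5.55, 6.35 and 5.88, against 5.28, 6.13 and 5.33 in 1D11 tumors. Radiation and control tumors did not overlap, but 1D11_radiation and 1D11 tumors did: 1D11 replicate 2 lay above 1D11_radiation replicates 1 and 3. The log2 change of 0.56 ± 0.23 (95% interval 0.06 to 1.07) between radiation and control did not pass (limma, adjusted p = 0.215). Control tumors and 2 of the 1D11 tumors were close to the filter on dim genes at 5.37.

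**Figure D1:**
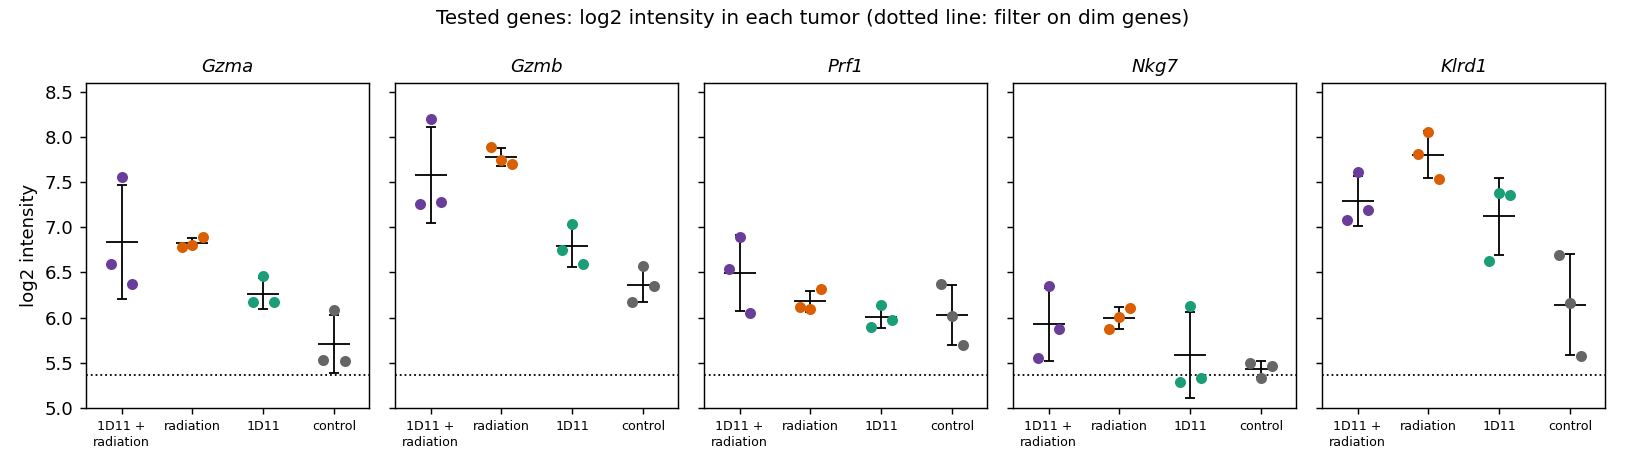
Log2 intensity (vertical axis) of Gzma, Gzmb, Prf1, Nkg7 and Klrd1 in each of 12 tumors, by group; points are tumors, horizontal bars are means and error bars are SD (n = 3), and the dotted line is the filter on dim genes at 5.37. For Gzmb the 6 irradiated tumors, 7.26 to 8.20, sit above the 6 unirradiated ones, 6.17 to 7.04.

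Klrd1 encodes CD94, the lectin-like chain that pairs with NKG2 chains to read the non-classical MHC class I molecule Qa-1. Its log2 intensity was 7.81, 8.06 and 7.54 in radiation tumors, against 6.69, 6.17 and 5.57 in control tumors. In 1D11_radiation tumors it was at 7.08, 7.61 and 7.19, against 6.63, 7.38 and 7.36 in 1D11 tumors. Radiation and control tumors were far apart, while 1D11_radiation and 1D11 tumors overlapped, and the control tumors had the widest spread (SD 0.56). Radiation under the control antibody raised Klrd1 by 1.66 ± 0.28 (adjusted p = 0.0189, limma). This call ended without radiation replicate 1 or 2, at adjusted p = 0.0790 and 0.0735.

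Of the 4 tested T cell markers, 2 were higher in the same comparison, with a median change of 0.10 over the 4. The dim markers were not tested. Their mean log2 intensity was 5.20 (Cd3g), 4.83 (Cd247), 4.35 (Cd8b1) and 4.56 (Cd5) in radiation tumors. In control tumors it was 4.45, 4.49, 4.30 and 4.37 in the same order. The list's summed intensity over 8 markers was 439 to 477 in radiation tumors, against 366 to 408 in control tumors, and 1 of 4 tested markers was called, Cd3d, a chain of the T cell receptor complex, higher by 0.69 ± 0.13 (adjusted p = 0.0264, limma), against 1.48% of all genes called higher. Cd3e (0.23 ± 0.09), Cd8a (-0.03 ± 0.08) and Cd4 (-0.08 ± 0.09) did not pass. Summed macrophage markers were at 20267 to 22386 in radiation tumors and 14249 to 17948 in control tumors, with Mrc1 and Itgam called of 8 tested. Natural killer cell markers summed to 106 to 115 in radiation tumors and 91.1 to 102 in control tumors, with all 4 dim and none tested. The part of these cell types in the granzyme and Klrd1 results was not tested.

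Under 1D11, the radiation differences of Gzmb, Gzma, Nkg7 and Klrd1 were smaller in value. That of Prf1 was larger by its brighter probe set, while the dimmer one was at -0.09 ± 0.10. No interaction passed. None of the 5 genes was called between 1D11_radiation and 1D11 tumors (limma), where 0.0785% of all genes were called, and 3 of 5 had an unadjusted p under 0.05, against 15.5% of all genes tested. Gzmb came closest, with 0.79 ± 0.22 (95% interval 0.30 to 1.27, adjusted p = 0.136), and was the only 1 of the 5 whose 1D11_radiation tumors all lay above the 1D11 tumors, against 9.59% of all genes. Gzma was at 0.58 ± 0.26, Nkg7 at 0.34 ± 0.23, Prf1 at 0.49 ± 0.20 and Klrd1 at 0.17 ± 0.28 (95% interval -0.45 to 0.79). In 1D11_radiation tumors replicate 2 was highest for all 5 genes: without it, the Gzmb difference was 0.48 and the Gzma difference 0.22.

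The interaction asks directly whether the radiation difference depended on the antibody, as the difference under 1D11 minus that under 13C4. It was largest for Klrd1, at -1.49 ± 0.40 (95% interval -2.36 to -0.61). Its unadjusted p from limma was 0.00322, but the adjusted p was 0.395, and none of the 12735 genes passed (0%). Array weights gave -2.01 with an adjusted p of 0.0247, the 1 setting of 19 in which Klrd1 was called and one in which 122 of the 12735 genes were, and the adjusted p ran up to 0.680 in the others. Gzmb (-0.62 ± 0.31, 95% interval -1.31 to 0.06), Gzma (-0.54 ± 0.36), Nkg7 (-0.22 ± 0.32) and Prf1 (0.34 ± 0.29) had wide intervals that hold 0. For Klrd1 alone of the 5 was the unadjusted p under 0.05, against 7.48% of all genes tested.

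Neutralizing TGF-beta without radiation called none of the 5 genes between 1D11 and control tumors (limma), where 0.0157% of all genes were called. At an unadjusted p under 0.05 there was 1 of 5, Klrd1, against 14.1% of all genes. Klrd1 differed by 0.98 ± 0.28 (95% interval 0.36 to 1.60, adjusted p = 0.199), with 1D11 replicate 1 inside the range of the control tumors. Gzma (0.56 ± 0.26, adjusted p = 0.362) and Gzmb (0.43 ± 0.22, adjusted p = 0.410) had 1D11 tumors that all lay above the control tumors, as did 12.1% of all genes. Nkg7 was at 0.15 ± 0.23 and Prf1 at -0.02 ± 0.20. Markers of other cell types also differed in level here. The summed intensity of 8 mast cell markers (Tpsab1 and Ms4a2 dim) was 2310 to 2537 in 1D11 tumors and 705 to 1521 in control tumors, with a median change of 1.52 over the 6 tested. That of 8 macrophage markers was 18524 to 23238 in 1D11 tumors and 14249 to 17948 in control tumors, and that of 8 keratinocyte markers (4 dim) was 426 to 3186 in 1D11 tumors and 381 to 444 in control tumors. None of the tested markers of these 3 lists was called (limma), though 10 of 18 had an unadjusted p under 0.05. Natural killer cell markers, all 4 dim, summed to 95.8 to 109 in 1D11 tumors and 91.1 to 102 in control tumors. The part of these cell types in the Klrd1, Gzma and Gzmb differences was not tested.

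In irradiated tumors the antibody made no difference that passed for any of the 5 genes, or for any of the 12735 (0% called, and 5.4% at an unadjusted p under 0.05, which none of the 5 reached). Between 1D11_radiation and radiation tumors the intervals were -0.55 to 0.58 for Gzma, -0.68 to 0.29 for Gzmb, -0.13 to 0.76 for Prf1, -0.57 to 0.43 for Nkg7 and -1.13 to 0.11 for Klrd1. These allow differences of up to about a log2 unit for Klrd1, and do not show that the groups were alike. The spread was wider in 1D11_radiation than in radiation tumors for Gzmb, Gzma, Prf1 and Nkg7, but not clearly for Klrd1. The SD of Gzmb was 0.53 in 1D11_radiation tumors and 0.10 in radiation tumors, and that of Gzma 0.63 and 0.06. In the same groups it was 0.42 and 0.12 for Prf1, 0.40 and 0.12 for Nkg7, and 0.28 and 0.26 for Klrd1. In 1D11 tumors the SD of Nkg7 was 0.48, and in control tumors that of Prf1 was 0.34. For Gzmb and Gzma the wide spread came with 1D11_radiation replicate 2, at 8.20 and 7.56. Replicates 1 and 3 were at 7.26 and 7.28 for Gzmb and at 6.59 and 6.37 for Gzma.

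With both treatments against neither, Gzmb and Gzma rose again. Between 1D11_radiation and control tumors, 2 of 5 genes were called higher (limma), against 1.71% of all genes: Gzmb by 1.21 ± 0.22 (adjusted p = 0.0265) and Gzma by 1.13 ± 0.26 (adjusted p = 0.0483). Klrd1, at 1.15 ± 0.28, missed the threshold (adjusted p = 0.0574), and passed without control replicate 1 (1.42, adjusted p = 0.0364), with array weights (1.30, adjusted p = 0.0127) or without both muscle-rich arrays (adjusted p = 0.0296). In 4 of 5 genes, all but Prf1, the groups did not overlap, against 14.7% of all genes. Gzmb lost the call without control replicate 1 (adjusted p = 0.0579), 1D11_radiation replicate 3 (0.0606) or both muscle-rich arrays (0.0560), and Gzma kept it in 4 of 20 settings and lost it without both muscle-rich arrays (1.04, adjusted p = 0.101). With quantile normalization 52.5% of all called genes were higher in this comparison, against 72.9% as deposited. The control tumors are shared with the comparisons above, so these results are not separate evidence.

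**Figure D2:**
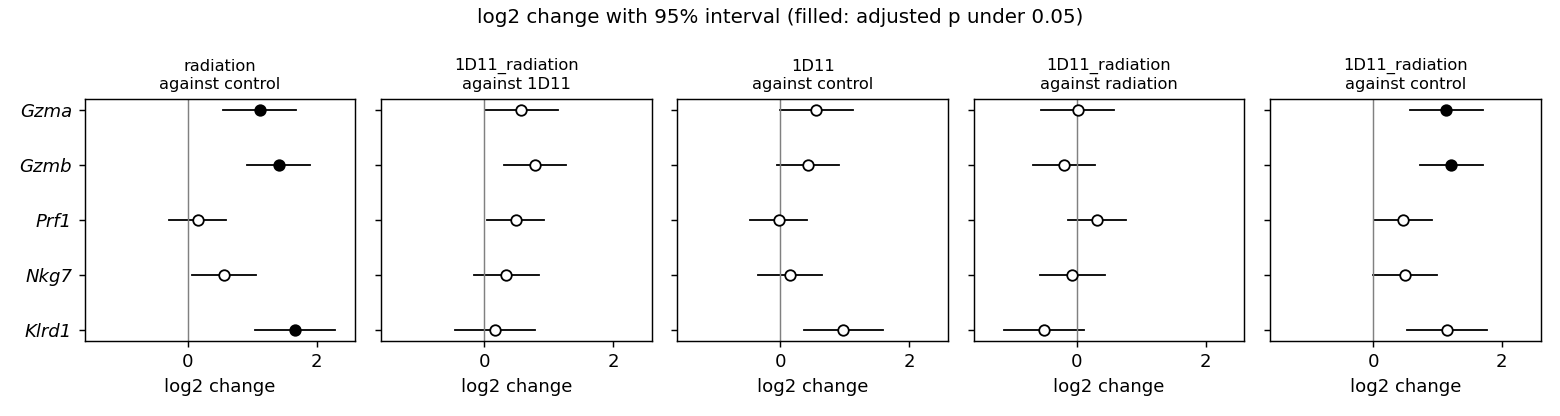
Log2 change (horizontal axis) of the 5 tested genes in the 5 comparisons between groups, with 95% intervals from limma (n = 3 tumors per group); filled points have an adjusted p under 0.05. Filled points appear for Gzma, Gzmb and Klrd1 between radiation and control and for Gzma and Gzmb between 1D11_radiation and control, and the Klrd1 change under 1D11 (0.17) is near 0.

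Over both antibodies, 6 irradiated tumors were set against 6 unirradiated ones in the same fit. Gzmb rose by 1.10 ± 0.16 (adjusted p = 0.00505), Klrd1 by 0.92 ± 0.20 (adjusted p = 0.0216) and Gzma by 0.85 ± 0.18 (adjusted p = 0.0210, limma), so that 3 of 5 were called higher, against 3.39% of all genes. Only Gzmb separated all irradiated from all unirradiated tumors, as did 1.95% of all genes. Nkg7 (0.45 ± 0.16, adjusted p = 0.111) and Prf1 (0.32 ± 0.14, adjusted p = 0.197) did not pass, although all 5 had an unadjusted p under 0.05, as did 24.3% of all genes. The dimmer Prf1 probe set was at -0.06 ± 0.07 here. Gzmb kept its call in all 19 alternative settings run. Gzma lost it without radiation replicate 1 (adjusted p = 0.0513), and Klrd1 without radiation replicate 1 or 2 (0.0553 and 0.0534). The average effect of 1D11 over both radiation states called none of the 5 (limma, none at an unadjusted p under 0.05), against 0.00785% of all genes called and 12.5% at an unadjusted p under 0.05. The values ran from 0.04 ± 0.16 for Nkg7 to 0.29 ± 0.18 for Gzma.

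By group mean, Gzmb was at 7.58 ± 0.53 in 1D11_radiation tumors, 7.78 ± 0.10 in radiation tumors, 6.79 ± 0.23 in 1D11 tumors and 6.37 ± 0.20 in control tumors (log2 intensity, mean ± SD, n = 3). Gzma ran in nearly the same order, at 6.84 ± 0.63, 6.83 ± 0.06, 6.26 ± 0.17 and 5.71 ± 0.32 in the same groups, with the first pair of means equal within their spread. For Klrd1 the order was clearer at the ends than in the middle: 7.29 ± 0.28 in 1D11_radiation, 7.80 ± 0.26 in radiation, 7.12 ± 0.43 in 1D11 and 6.14 ± 0.56 in control tumors. Its 1D11_radiation and 1D11 means differed by less than their SDs.

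Across the 12 tumors, the log2 values of Gzma and Gzmb had a Pearson r of 0.95, and r was 0.92 after group means were removed. Nkg7 had r of 0.81 with Gzmb, or 0.68 within groups. Klrd1 had r of 0.78 with Gzmb, but 0.25 within groups. Over the 12 tumors Prf1 was the least alike, with r of 0.56 with Gzmb and 0.47 with Klrd1. Within groups these were 0.47 and 0.62, and the lowest were those of Klrd1 with Gzmb (0.25) and Gzma (0.34). These are descriptions over 12 arrays that share treatment groups. The tumor highest for Gzma, Gzmb and Nkg7 was 1D11_radiation replicate 2, and the tumor highest for Klrd1 was radiation replicate 2.

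**Figure D3:**
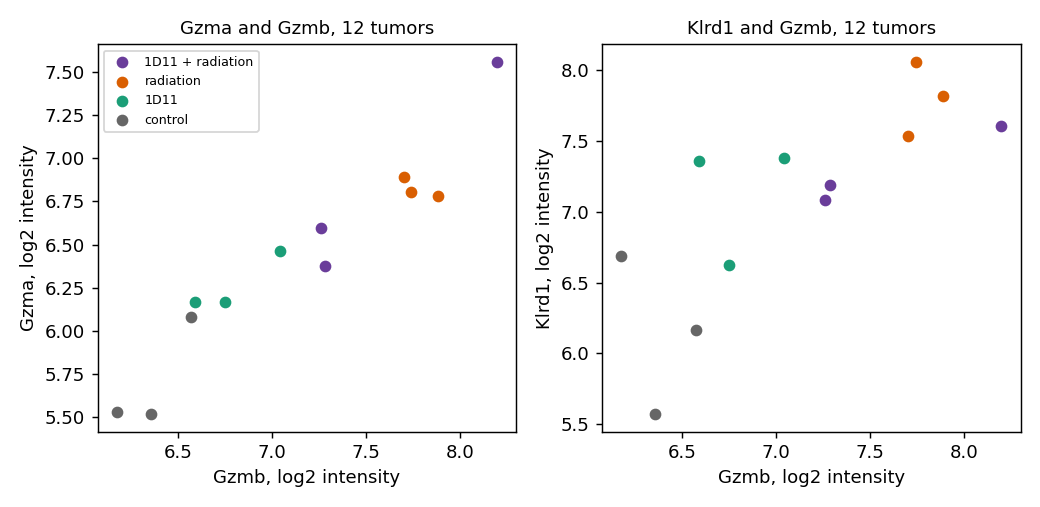
Log2 intensity of Gzma (left, vertical axis) and Klrd1 (right, vertical axis) against that of Gzmb (horizontal axes) in 12 tumors, coloured by group. Gzma and Gzmb lie close to a straight line (r = 0.95), while the Klrd1 points are more scattered (r = 0.78).

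The genes with the most similar pattern over the 12 arrays, members aside, differed between them. For Gzmb these were Cd80, whose product costimulates T cells (r = 0.97), Mrps2 (0.95) and Junos (0.95). For Gzma they were Cndp2, Anxa2 and Ogfrl1, each at r = 0.93. Klrd1 was nearest to Ccl5, a chemokine made by T and natural killer cells (r = 0.96), the cytokine subunit gene Ebi3 (0.96) and the MHC class II chain gene H2-Aa (0.95). Nkg7 was nearest to the keratin genes Krt8 (0.91) and Krt18 (0.85) and to Gstm1 (0.87). Prf1, by its brighter probe set only, was nearest to other granzyme genes, Gzmf (0.92), Gzmd (0.89) and Gzmg (0.88). The control and 1D11 means of these granzyme genes lay below the filter on dim genes. They were 5.19 and 4.79 for Gzmf, 5.02 and 4.76 for Gzmd, and 4.85 and 4.55 for Gzmg. Among the 50 nearest genes of each tested member, Gzma and Gzmb held each other, Nkg7 held both, and Prf1 and Klrd1 held none of the other 4.

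The granzyme genes beside Gzmb behaved differently from it. On mouse chromosome 14, Gzmc lies 17.2 kb from Gzmb, followed by Gzmf, Gzmn, Gzmg, Gzmd and Gzme, which encode granzymes best known from activated mouse killer cells in culture. Gzmd was at 7.72, 8.75 and 5.36 log2 intensity in 1D11_radiation tumors, at 5.59, 5.30 and 7.55 in radiation tumors, at 3.26, 5.28 and 5.74 in 1D11 tumors and at 5.54, 5.82 and 3.72 in control tumors. High values in 1D11_radiation replicates 1 and 2 and radiation replicate 3 were matched in Gzmg, at 7.54, 8.26 and 7.14, and the groups overlapped. Gzmd spanned 5.49 log2 units over the 12 tumors. Its r was 0.60 with Gzmb and 0.89 with the brighter Prf1 probe set. These genes are close copies of each other, and the probe sets of Gzmd and Gzme are of the kind that can bind several sequences, so signal between them may be shared.

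**Figure D4:**
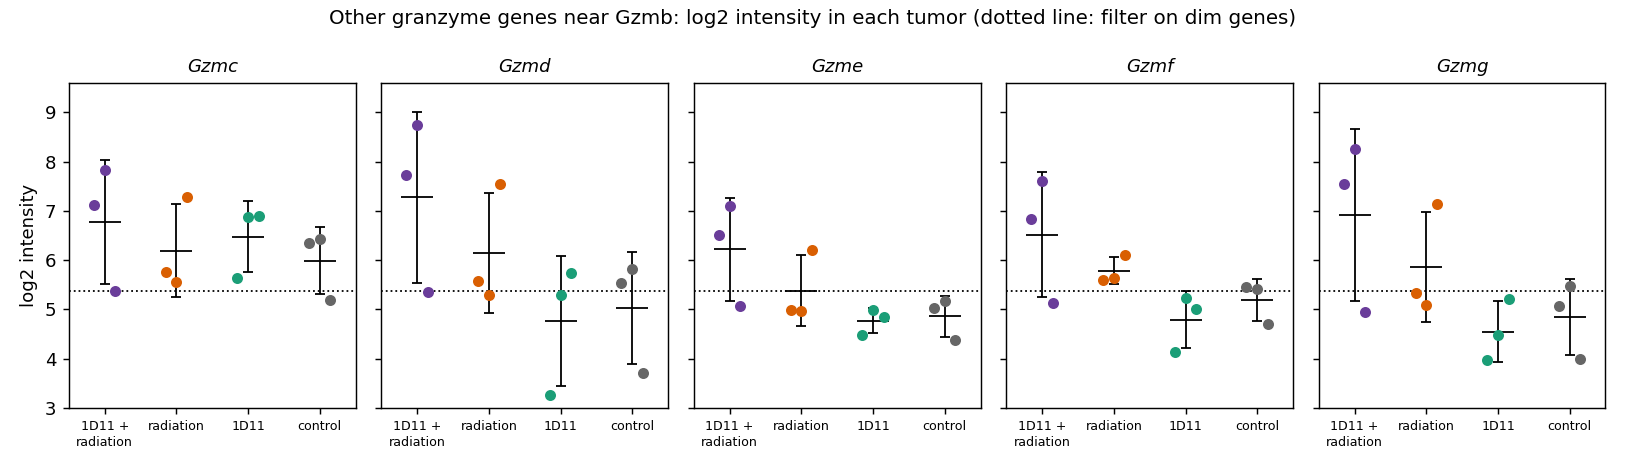
Log2 intensity (vertical axis) of 5 granzyme genes near Gzmb on chromosome 14 in each of 12 tumors by group; points are tumors, bars are means, error bars are SD (n = 3), and the dotted line is the filter on dim genes. In 1D11_radiation tumors Gzmd runs from 5.36 to 8.75, and its values overlap those of every other group.

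Of 20 other granule genes on the list, 15 were tested and none was called in any of the 8 contrasts (limma). Between radiation and control the smallest p was that of Ctsw, a lymphocyte cathepsin (0.36 ± 0.12, adjusted p = 0.145), and the list median was 0.20, against 0.00 for all genes. Serpinb9, which encodes an inhibitor of granzyme B, was at -0.63 ± 0.18 between 1D11_radiation and 1D11 tumors (adjusted p = 0.137) and at -0.44 ± 0.13 over both antibodies (adjusted p = 0.0586). Gzmm, a granzyme of innate killer cells, was at -0.22 ± 0.07 between 1D11_radiation and control tumors (adjusted p = 0.101).

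Of 27 other killer cell receptors and adaptors, 20 had a probe set and 9 were tested. Between radiation and control tumors 2 of 9 rose, against 1.48% of all genes: Slamf7, a receptor of natural killer cells and other leukocytes (0.80 ± 0.10, adjusted p = 0.00806), and Fcer1g, the signalling chain of Fc and natural killer receptors (0.56 ± 0.11, adjusted p = 0.0278, limma). Fcer1g is also made by macrophages and mast cells. The median change of the 9 was 0.30, and 8 of them were higher, against 0.00 and 49.6% for all genes. Cd160 was the lower one, with a mean of 5.99 in radiation and 6.10 in control tumors. All 8 macrophage markers were also higher in this comparison, with a median of 0.37, and their part in the list's change was not tested. Slamf7 was at 5.86, 6.05 and 5.83 log2 intensity in radiation tumors, against 5.13, 5.29 and 4.91 in control tumors. Its mean lay below the filter on dim genes in control (5.11) and 1D11 (5.35) tumors, so Slamf7 was tested mainly through its level in radiation tumors. Over both antibodies Slamf7 (0.44 ± 0.07, adjusted p = 0.00813) and Klrg1, an inhibitory lectin-like receptor of mature killer cells (0.49 ± 0.12, adjusted p = 0.0363), rose. The Slamf7 average came mainly from the control antibody: its mean was 5.43 in 1D11_radiation tumors, close to 5.35 in 1D11 tumors. Klrg1 was at 5.76 and 5.27 in the same groups. The 1D11 mean of Klrg1 (5.27) was likewise below the filter. The list had no call in the other 6 contrasts. Ligands of the Klrk1 receptor could be followed little: 2 of 9 had a single-symbol probe set, Ulbp1 and H60c, and both were dim.

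Among 11 tested differentiation factors and cytokine receptors of 23 listed, Stat4, which transmits interleukin-12 signals in killer and helper cells, rose by 0.75 ± 0.08 between radiation and control (adjusted p = 0.00710, limma) and by 0.39 ± 0.08 between 1D11_radiation and control (adjusted p = 0.0414). Il15, the cytokine that sustains natural killer and memory T cells, rose by 0.83 ± 0.14 between 1D11_radiation and control (adjusted p = 0.0199). Over both antibodies Stat4 (0.38 ± 0.06) and Il15 (0.39 ± 0.10) were called higher, at adjusted p of 0.00720 and 0.0357 (limma). For Stat4 that average hides a difference between the antibodies. Between 1D11_radiation and 1D11 tumors Stat4 was at -0.0012 ± 0.083, and Il15 at 0.37 ± 0.14. Stat4 was at 0.39 ± 0.08 between 1D11 and control, and its interaction was -0.75 ± 0.12 (adjusted p = 0.265, limma). Of all genes tested, 1.48% were called higher between radiation and control, 1.71% between 1D11_radiation and control and 3.39% over both antibodies. The list had no call in the other 5 contrasts, and its median between radiation and control was 0.22. Tbx21, the T-box factor that acts beside Eomes, was dim.

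Of 16 tested genes of the interferon gamma receptor and its targets, Cxcl9, a T cell chemokine (2.23 ± 0.47, adjusted p = 0.0348), and the guanylate-binding protein gene Gbp6 (0.92 ± 0.16, adjusted p = 0.0189) rose between radiation and control, and the receptor gene Ifngr1 fell by 0.58 ± 0.11 (adjusted p = 0.0264, limma). Of all genes tested, 1.48% were called higher between radiation and control, and 304 of 12735 were called in either direction. Between 1D11_radiation and control, Cxcl9 rose by 2.20 ± 0.47 and Ifngr1 fell by 0.57 ± 0.11. There 1.71% of all genes were called higher, and 299 were called in either direction. The control mean of Cxcl9 (5.34) lay just below the filter on dim genes. Over both antibodies Ifngr1 fell by 0.47 ± 0.08 and the checkpoint ligand gene Cd274 rose by 0.48 ± 0.13 (adjusted p = 0.0483, limma). Here 3.39% of all genes were called higher, and 925 were called in either direction. The list median was 0.16 between radiation and control and -0.16 between 1D11_radiation and 1D11. Of 6 tested T cell receptor and coreceptor genes, Cd3d alone was called, between radiation and control and over both antibodies (0.46 ± 0.09, adjusted p = 0.0161, limma). The shares of all genes called higher in these contrasts were 1.48% and 3.39%. Cd8a and Cd3e did not pass in any contrast.

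The 5 dim genes were fitted only with the filter removed, over all 18193 genes, and none was called in any contrast. Klrk1, the NKG2D receptor gene for stress ligands, was at 5.15, 5.31 and 5.21 log2 intensity in radiation tumors, against 4.74, 4.82 and 4.90 in control tumors. That was a difference of 0.40 ± 0.12 with an adjusted p of 0.131 (limma) and an unadjusted p of 0.00612, and at 5.31, 5.26 and 4.86 the 1D11 tumors reached the same range. Gzmk, the tryptic granzyme that lies 70.6 kb from Gzma on chromosome 13, was at 5.01, 5.44 and 5.29 in radiation tumors and 4.93, 4.72 and 5.22 in control tumors, a difference of 0.29 ± 0.14 (adjusted p = 0.342).

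Ncr1, the gene of the natural killer receptor NKp46, ran from 4.26 to 5.01 over the 12 tumors, with radiation replicate 3 the highest, and differed by 0.24 ± 0.14 between radiation and control (adjusted p = 0.475, limma). Ifng lay in the lowest 4.57% of gene means, at 3.69, 4.09 and 3.71 in radiation tumors and 3.66, 3.66 and 3.78 in control tumors. Radiation replicate 2 and 1D11_radiation replicate 2 (4.02) were the only tumors above 4 for Ifng. Eomes spanned 4.96 to 5.26, and its radiation against control difference of 0.12 ± 0.08 had a 95% interval of -0.07 to 0.31. At such low intensity the values are near the array's background, which is not known here.

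**Figure D5:**
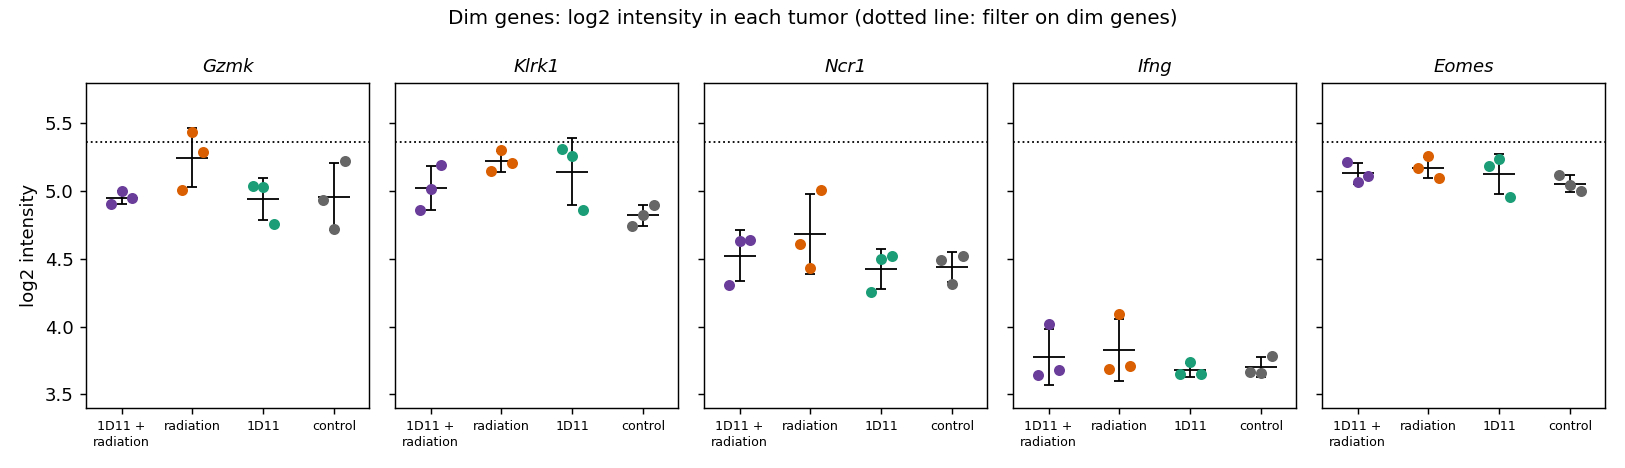
Log2 intensity (vertical axis) of the dim genes Gzmk, Klrk1, Ncr1, Ifng and Eomes in each of 12 tumors by group; points are tumors, bars are means, error bars are SD (n = 3), and the dotted line is the filter at 5.37. All but 1 value lie below the line (Gzmk in radiation replicate 2, at 5.44), and for Klrk1 the radiation tumors (5.15 to 5.31) lie above the control tumors (4.74 to 4.90).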

How the data were processed

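Each tumor's RNA was labelled with biotin and hybridised to 1 Affymetrix array, per the labels' protocols. The deposited values are linear intensity, 1 for each probe set; the authors' background correction, normalization and summary are steps not given in the sources used here. Array medians lay between 62.3 and 66.1, so the values were used as log2 intensity with no further step. The number of arrays, 3 per group, limits precision. Of 45101 probe sets, 34945 had a single gene symbol in the platform annotation, and a gene was represented by its brightest one. The lowest 30% of gene means were not tested.

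The model was limma 3.58.1 under R 4.3.3 (a mean for each of the 4 groups by lmFit, eBayes moderation, 12 arrays; 8 residual and 3.11 prior degrees of freedom), two-sided, with Benjamini-Hochberg adjustment over 12735 genes, and called at an adjusted p under 0.05. Errors of changes are SE. Intervals are 95%. The script was tested on simulated data. Alternatives were a replicate block, quantile normalization, array weights, mean of probe sets, no filter, log2 of the value plus 16, only the compared groups, each tumor left out, and both muscle-rich arrays left out. Members, gene lists and tests were chosen with earlier results of these data known. Named list genes are those called, up to 4 per contrast, or the 1 with the smallest p, and not every such gene is printed; other list genes were named after their values were seen. The main fit did not pair tumors by replicate number. Once group means were taken out, same-numbered tumors had r between -0.31 and 0.27, and it exceeded 0.1 in 3 of 18 pairs. Differently numbered tumors were not compared, so these values cannot decide whether the numbers pair the tumors. Duplicate arrays were looked for and none was found. Promoter windows come from RefSeq (GRCm38.p6), cut to the 250 bases before the start used there. For Prf1, Klrk1 and Eomes part of the window lies inside the gene's RefSeq locus, so it is not wholly upstream of the gene.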

Additional observations from a re-analysis of the deposited data

How the results depend on the processing

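With the replicate block, 3 of the 5 tested genes were called between radiation and control and 2 between 1D11_radiation and control, as without it. Between radiation and control the number was 1 (Gzmb) with only both groups fitted, where 6 genes were called in all. With 1 tumor left out it ran from 0 to 3, and it was 0 without radiation replicate 1 or 2. Between 1D11_radiation and control it was 1 with quantile normalization, with no filter, with log2 of the value plus 16 (Gzmb in each) and without both muscle-rich arrays (Klrd1), and 0 with only both groups fitted. With 1 tumor left out it ran from 0 to 2, and it was 0 without 1D11_radiation replicate 3. For the 6 irradiated against 6 unirradiated tumors it ran from 1 (without radiation replicate 1) to 4 (without 1D11 replicate 2, with Nkg7 added). The interaction had 1 call with array weights (Klrd1), where 122 of all 12735 genes were called. The count was 0 under all alternatives run for 1D11 against control, 1D11_radiation against 1D11, 1D11_radiation against radiation and the average 1D11 effect. The number of all genes called moved more: radiation against control had 304 as fitted, 206 with the block and 890 with array weights; it was 39 and 20 without radiation replicates 1 and 2. For 1D11_radiation against control these were 299, 85 and 923, and 17 without 1D11_radiation replicate 3. The irradiated against unirradiated comparison had 925, 658 and 2176. Of 785 single-gene values recomputed, 16 changed sign, none of them a called one. With 1 tumor left out, Prf1 ran from -0.013 (without control replicate 3) to 0.32 between radiation and control, and from -0.19 to 0.15 (without control replicate 1) between 1D11 and control, where it was also 0.030 without 1D11 replicate 1, 0.14 with array weights and 0.15 without both muscle-rich arrays. Klrd1 ran from -0.073 (without 1D11 replicate 1) to 0.30 between 1D11_radiation and 1D11. Nkg7 ran from -0.12 to 0.30 between 1D11 and control, from -0.096 to 0.14 for the average 1D11 effect and from -0.43 to 0.056 for the interaction, with the sign turned without 1D11 replicate 2; the average was also -0.065 without 1D11_radiation replicate 2. Between 1D11_radiation and radiation Nkg7 ran from -0.28 to 0.12 (without 1D11_radiation replicate 1). Gzma ran there from -0.34 (without 1D11_radiation replicate 2) to 0.25, and was -0.0036 with quantile normalization, -0.24 with array weights and -0.0059 without radiation replicate 1. The average 1D11 effect on Gzmb ran from -0.039 (without 1D11_radiation replicate 2) to 0.20. The cause was not tested. Signal over background is not known for these arrays, and 5 of the 10 genes were too dim to test.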
